A study of Rattus norvegicus with 24 samples.

Results

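The collagen genes and a small group of genes typical of the fibroblasts of the brain coverings were followed in rat hypothalamus after restraint stress, with and without inhaled linalool. The set was chosen by gene name: it holds each probe set whose only gene symbol is a collagen chain (Col, a number, a, a number) or is Dcn, Lum, Ogn, Fmod, Aldh1a2, Crabp2, Slc13a4, Slc22a6, Igf2 or Igfbp2. A probe set is a group of short oligonucleotides on the array that read 1 transcript. The rule found 74 probe sets of 51 genes among 31042 probe sets other than array controls. Of these, 58 probe sets belonged to 41 collagen genes and 16 to the other 10 genes.

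The animals were male Wistar rats aged 7 weeks in 3 groups of 6, 18 rats in all. Control rats were not restrained, stress rats spent 2 h held in wire mesh, and linalool rats spent the same 2 h in wire mesh inside a 40 L box in which 20 µL of (R,S)-linalool had evaporated. No group received the odour without restraint, so linalool can be compared with stress alone but not with an undisturbed rat. The hypothalamic block of each rat was cut out directly after the exposure, placed in RNAlater, and read on its own Affymetrix array from 500 ng of total RNA.

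Collagens are proteins of 3 chains wound into a helix, and their families build different structures. The fibrillar collagens, types I, II, III, V, XI, XXIV and XXVII, pack into the fibrils of connective tissue, while the basement membrane collagens, types IV, XV and XVIII, belong to the thin sheets that underlie endothelium and surround brain vessels. In brain the fibrillar chains come largely from fibroblasts of the meninges and of larger vessels, and meningeal fibroblasts also make decorin, lumican, retinoic acid and insulin-like growth factor 2. A hypothalamic block has pia on its ventral face, so its RNA can hold a share from these cells, and in such bulk tissue fewer cells of a type and less RNA per cell cannot be told apart.

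The deposited values are log2 signals, from 5.59 to 14.93, normalized by the authors in 2 sets: set 1 holds controls and stress rats, and set 2 holds the same stress rats with the linalool rats. Column medians lay between 8.13 and 8.19, and no pair of columns was identical. For most probe sets the arrays of a set differed in the third decimal or beyond, and a probe set whose residual SD within groups was under 0.01 is called compressed here, and the others open. Compressed probe sets made up 83.5% of all probe sets in set 1 and 83.7% in set 2, and among the members 37 of 74 in set 1 and 56 of 74 in set 2. A compressed probe set can pass a test, but its log2 difference cannot be read as a fold change. Hypothalamic genes were well above the column medians in control rats, with Pmch between 11.35 and 12.54 and Avp between 10.79 and 12.32.

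The same stress rat could therefore appear with a wide or with almost no spread, depending on the set. The 6 stress rats spanned 0.45 log2 units for Col1a1 in set 1 and 0.00078 in set 2. For Col1a2, whose chain joins that of Col1a1 in the same molecule, they spanned 0.473 and 0.646. Probe sets open in both sets numbered 17, those open in set 1 only 20, those open in set 2 only 1 (Col27a1), and those compressed in both 36. The linalool comparison could thus show a difference of ordinary size in 18 of the 74 members, and the stress comparison in 37.

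**Figure D1:**
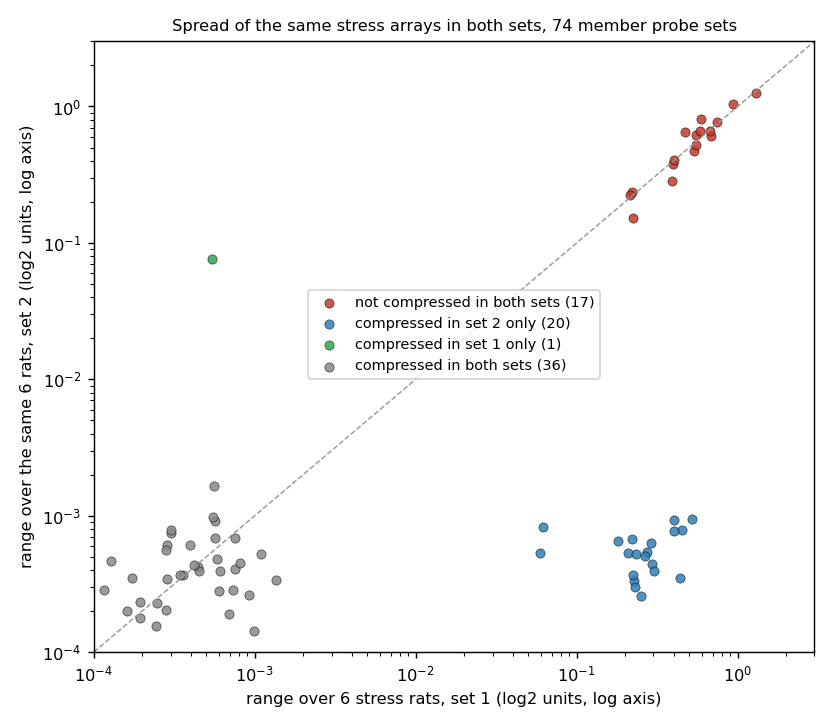
Range of the 6 stress rats in set 1 (horizontal, log axis, log2 units) against the range of the same rats in set 2 (vertical, log axis) for the 74 member probe sets, coloured by the set or sets in which the residual SD was under 0.01. The 17 probe sets open in both sets lie near the diagonal, and the 20 at lower right had a median range of 0.26 in set 1 and 0.000532 in set 2.

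No member passed the test of restraint stress against control. limma with Benjamini-Hochberg adjustment over 31042 probe sets called 0 of 74 members in either direction, against 0.554% of all probe sets (172; 0.341% higher and 0.213% lower) and 0.301% of the compressed ones, and the lowest adjusted p of a member was 0.158. Without adjustment 21 of 74 members had p under 0.05 (28.4%), against 16.0% of all probe sets. Among open probe sets, 33 of the 37 members had a lower stress mean (89.2%), against 58.6% of all open probe sets (2992 of 5107). High values in some control rats can both make a probe set open and lower its stress mean relative to control, so this share is partly set by the sorting. With the compressed ones, whose sign can turn with the normalization, it was 56 of 74 members (75.7%) against 44.9% of all probe sets. Differences below -0.5 log2 units were found in 20 of the 74 members and in 129 of all 31042, and no member was above 0.5. The groups overlapped for each of the 74 members, where 1.78% of all probe sets had groups that did not overlap.

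The members' values spread widely among control rats. Control rats 5 and 6 were the 2 highest of the 12 arrays for 39 of 74 members (52.7%), against 5.73% of all probe sets. Among the 37 open members they were so for 31 (83.8%), against 14.2% of open probe sets. The residual SD that sorts open from compressed includes the spread of the controls, so a high control 5 or 6 can itself make a probe set open. Counts over open members are thus partly set by this sorting. The control range was a median 2.18 times the stress range over the members, against 1.19 over all probe sets. Over the open members it was 4.41 times, against 1.32 over all open probe sets. Control 1 did not exceed the highest stress rat for 65 of 74 members (87.8%), near the 82.2% of all probe sets. Control 2 did not for 70 (94.6%, against 83.2%). Counted by gene, controls 5 and 6 were the 2 highest for 52.9% of member genes, but also for 72.0% of a list of meningeal fibroblast markers and 66.7% of a list of other fibroblast matrix genes, against 7.12% of all genes, so the pattern is not particular to the members. These counts describe the members and were read after the high rats had been seen.

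The type I and III collagens, which form the main fibrils of connective tissue, had the widest control range of the collagens. Col1a1 signals ran from 8.21 to 10.59 in control rats with a median of 9.11, and from 8.12 to 8.57 in stress rats with a median of 8.32. Control 5 (10.59) and control 6 (10.33) stood highest, controls 3 and 4 followed at 9.13 and 9.08, and control 1 (8.21) lay inside the stress range. The difference of stress minus control was -0.98 (SE 0.389), adjusted p = 0.26 with limma.

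Col1a2, the second chain of type I collagen, ran from 9.06 to 11.80 in control rats with a median of 10.55, and from 9.08 to 9.56 in stress rats with a median of 9.29. Control 1 was the lowest of the 12 rats and control 5 the highest. The group means were 10.54 ± 1.12 (SD, n = 6) and 9.31 ± 0.195 (SD, n = 6), a difference of -1.22 (SE 0.455) with an adjusted p of 0.237 (limma). Without controls 5 and 6 the difference was -0.61. The other probe sets of Col1a1 and Col1a2 differed by -1.01 and -1.15.

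Col3a1, the chain of type III collagen, ran from 8.49 to 11.22 in control rats with a median of 9.91, and from 8.50 to 9.18 in stress rats with a median of 8.80. Controls 3 to 6 were all above each stress rat, while controls 1 and 2 were not. The difference was -1.10 (SE 0.463), adjusted p = 0.28 with limma, and -0.47 without controls 5 and 6.

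The other fibrillar chains moved less or could not be read. Type V collagen helps to start fibrils: the open probe set of Col5a1 differed by -0.51 (SE 0.218, limma adjusted p = 0.291), with controls 5 and 6 both at 9.35 and no stress rat above 8.42, whereas its brighter probe set was compressed (-0.000184). Col5a2 differed by -0.17 (SE 0.0824), with controls 5 and 6 at 9.90 and 9.86 against at most 9.61 in stress, and its second probe set by -0.09. The brightest probe set of Col2a1, the main collagen of cartilage, went the other way at 0.13 (SE 0.0743, adjusted p = 0.391 by limma). Col11a2, Col24a1, Col27a1 and Col5a3 were compressed, as was the brightest probe set of Col11a1.

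**Figure D2:**
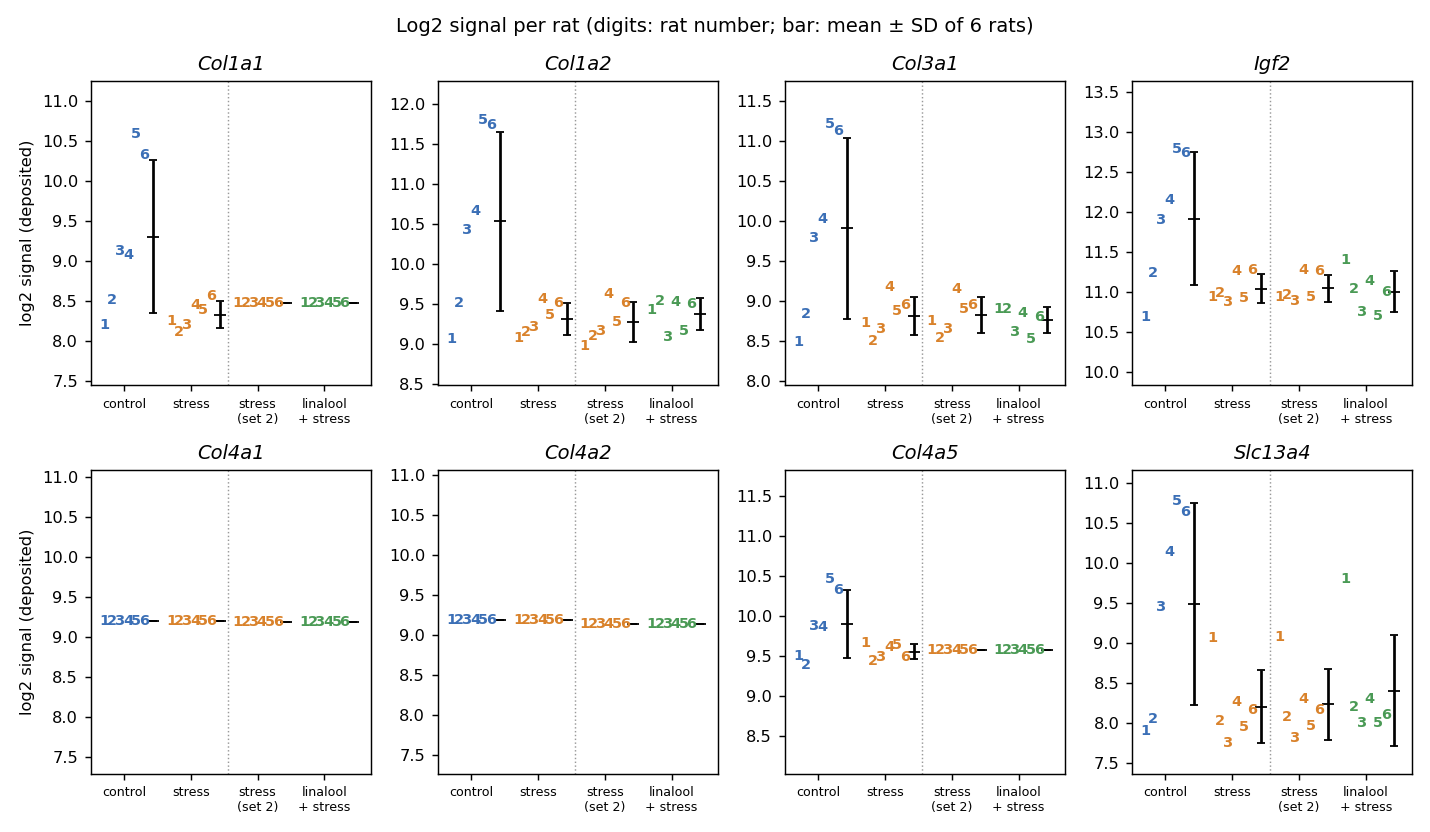
Deposited log2 signal (vertical) of 8 member genes in each rat, by group (horizontal), with digits for the rat number and bars for the mean ± SD of 6 rats; the dotted line separates set 1 from set 2. Controls 5 and 6 are the highest of set 1 for Col1a1, Col1a2, Col3a1, Col4a5, Igf2 and Slc13a4, and Col4a1 and Col4a2 show no visible spread.

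Among the basement membrane collagens the chains differed in whether they could be read. Col4a1 and Col4a2, the chains of the type IV collagen of most vessels, were at 9.20 and 9.19 in each of the 12 rats of set 1, with ranges over the 12 of 0.00068 and 0.000408. Their differences were -8.39e-05 and -0.000103, with limma adjusted p of 0.74 and 0.49. At this scale nothing can be said of a fold change, and both signs turned with median centring and with quantile normalization. In the deposited values controls 5 and 6 held the 2 highest ranks in 3 of the 3 probe sets of these genes, against 4.07% of all compressed probe sets. Over the 6 compressed probe sets of the class it was 3, so none of the others did. These ranks rest on differences in the third decimal or beyond.

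The open chains of this family also had controls 5 and 6 highest, over a narrower range than type I and III collagens. Col4a5 ran from 9.39 to 10.46 in control rats with a median of 9.87, and from 9.43 to 9.66 in stress rats with a median of 9.55. Control 5 (10.46) and control 6 (10.32) were highest, and control 2 (9.39) was the lowest of the 12, where for Col1a2 and Col3a1 it was control 1. The difference was -0.35 (SE 0.175, limma adjusted p = 0.355).

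Col4a6, which pairs with Col4a5 in some basement membranes, differed by -0.06 in its brighter and -0.34 in its dimmer probe set. Col18a1, whose end fragment is endostatin, differed by -0.19 and -0.32, and by -0.01 for the first of these without controls 5 and 6. Col15a1, a close relative of Col18a1, and Col4a4 were compressed, and Col4a3 was not measured under this rule. Over the class, controls 5 and 6 were the 2 highest in 8 of 11 probe sets, including 5 of the 5 open ones. In the fibrillar class they were so in 9 of 19, including 8 of the 10 open ones.

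To set the classes side by side, each probe set was centred on the 12 arrays and divided by its residual SD, and the median over the genes of a class was taken for each rat. On this scale the fibrillar score, over 11 genes, was 0.28 ± 0.58 (SD, n = 6) in control rats and -0.45 ± 0.40 (SD, n = 6) in stress rats, a difference of -0.72. The basement membrane score, over 7 genes, was 0.48 ± 1.12 (SD, n = 6) and -0.29 ± 0.48 (SD, n = 6), a difference of -0.78. Both differences turned positive when columns were centred on a common median (1.08 and 1.09) or quantile normalized (0.93 and 0.62).

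Fibrillar minus basement membrane differed between the groups by 0.05, with a pooled SD of 0.49 over rats. Of the genes scored, 6 of 11 fibrillar and 4 of 7 basement membrane were compressed. The scores thus rest largely on values that cannot be read as fold changes, and at this width they did not separate the classes. A narrower choice set Col1a1, Col1a2, Col3a1, Col5a1 and Col5a2, without Col5a3, against Col4a1 and Col4a2 alone. There the scores differed by -1.34 and -0.62 and the gap by -0.72, with a pooled SD of 0.59. The sign of the gap between fibrillar and basement membrane collagens thus depended on which chains were counted. In log2 units, 6 of 19 fibrillar and 0 of 11 basement membrane probe sets were below -0.5, against 129 of all 31042. By the brightest probe set of each gene it was 3 of 11 and 0 of 7 genes. However, 9 of the 19 and 6 of the 11 probe sets were compressed and could not show such a difference, those of Col4a1 and Col4a2 among them. No test was made of these scores, since the genes were chosen with results known.

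Upstream sequence was read for the genes on which this contrast turns: Col1a2 with the widest collagen difference, Col5a2 with a small difference in the same fibrillar class, and the Col4a1 and Col4a2 pair. The sequences are from RefSeq on the GRCr8 assembly, 5′ to 3′, with positions counted from the annotated start. Each member matched RefSeq by gene ID (74 of 74 probe sets), and the promoter table held 44 windows of 40 of the 51 genes. Capitals mark 3 promoter motifs on either strand: TATAAA (the TATA box), the CCAAT box and GGGCGG (the GC box).
Col1a2, chr4:33518307-33518416, plus strand, positions -250 to -141: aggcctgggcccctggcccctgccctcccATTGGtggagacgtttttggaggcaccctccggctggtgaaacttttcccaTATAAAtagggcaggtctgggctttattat
Col5a2, chr9:55090152-55090271, minus strand, positions -120 to -1: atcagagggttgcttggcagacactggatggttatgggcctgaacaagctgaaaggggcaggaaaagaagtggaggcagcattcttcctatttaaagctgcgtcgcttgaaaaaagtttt
Col4a1, chr16:84885521-84885596, plus strand, positions -76 to -1: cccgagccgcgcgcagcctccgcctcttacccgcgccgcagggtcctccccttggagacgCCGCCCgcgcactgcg

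In the Col1a2 stretch the capitals are CCAAT on the opposite strand and TATAAA. None of the 3 motifs lies in the 120 bases shown for Col5a2. The Col4a1 stretch is the whole of the 76 bases between the annotated starts of Col4a1 and Col4a2, which are read away from each other on opposite strands, and it holds GGGCGG on the opposite strand. In the 250 bases before a start, TATAAA was found in 1 of 10 fibrillar and 0 of 7 basement membrane windows, against 12.9% of all 33469 windows. CCAAT was in 3 and 2 of them (34.0% of all windows), and GGGCGG in 7 and 5 (30.5% of all windows). These matches describe letters in the windows listed, and no binding was measured.

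Beaded filament collagen, type VI, surrounds cells with fine microfibrils, and its open chains followed the fibrillar pattern. Col6a3 ran from 7.51 to 9.53 in control rats with a median of 8.41, and from 7.45 to 7.85 in stress rats with a median of 7.67. Controls 5 (9.53) and 6 (9.31) were highest and control 1 (7.51) lay inside the stress range. The difference was -0.82 (SE 0.342, limma adjusted p = 0.279). Col6a1 and Col6a2 differed by -0.44 and -0.37, while Col6a5 and Col6a6 were compressed.

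Of the collagens that attach to fibril surfaces, Col12a1 differed by -0.39 (SE 0.182, limma adjusted p = 0.329) and the open probe set of Col14a1 by -0.19. Col9a3, a chain of type IX collagen best known from cartilage, differed by 0.06. The other 9 probe sets of this class were compressed, so the sign of their differences can turn with the normalization. Over all 12, 6 had a lower stress mean. Controls 5 and 6 were the 2 highest in 4 of the 12 (33.3%, against 5.73% of all probe sets).

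The network collagen type VIII showed a different order of rats. Col8a1 ran from 7.51 to 8.52 in control rats, and here control 4 (8.52) was highest, with controls 5 and 6 at 8.10 and 7.82 and stress 1 at 8.01. Col8a2 had controls 4, 5 and 6 together at 8.84, 8.80 and 8.80, with stress 1 at 8.26 above the other stress rats. The differences were -0.28 and -0.57, with limma adjusted p of 0.429 and 0.334. Control 4 and stress 1 were also the only rats of set 1 with high Ttr, the transthyretin gene of the choroid plexus, at 14.22 and 13.85, while the other rats of both sets were between 8.20 and 10.18 apart from linalool 1 (14.12). The part of choroid plexus RNA in the type VIII values was not tested.

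Col25a1, a transmembrane collagen of neurons, was open in both sets and had means of 10.35 in control and 10.43 in stress, a difference of 0.08 (SE 0.0923, limma adjusted p = 0.69). Unlike Col1a1, Col1a2 and Col3a1 it did not rank controls 5 and 6 highest. The other transmembrane chains, Col13a1, Col17a1 and Col23a1, and the chains Col7a1, Col10a1 and Col26a1 were compressed. Col17a1 had the lowest adjusted p of the members, 0.158 by limma, at a log2 difference of -0.000158.

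The leucine-rich proteoglycans bind to collagen fibrils and set their spacing, and 7 of their 7 probe sets were open and lower in the stress mean. Osteoglycin (Ogn) ran from 7.74 to 10.29 in control rats with a median of 9.23, and from 7.75 to 8.16 in stress rats with a median of 7.97. Controls 3 to 6 (9.11, 9.35, 10.29 and 10.21) were all above each stress rat, and control 1 was the lowest of the 12. The difference was -1.13 (SE 0.434, limma adjusted p = 0.248), and the 4 probe sets of Ogn lay between -1.29 and -1.04.

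Fibromodulin (Fmod) differed by -0.85 (SE 0.342), with controls 5 and 6 at 9.57 and 9.58 and no stress rat above 7.88. Lumican (Lum) differed by -0.53 (SE 0.294), with control 5 at 9.80 and control 1, the lowest of the 12 rats, at 7.89. Decorin (Dcn) differed by -0.46 (SE 0.26), with control 5 at 10.03 and control 1, again the lowest, at 8.40. Their adjusted p values by limma were 0.263, 0.39 and 0.396. Without controls 5 and 6 the differences were -0.38 for Fmod, -0.13 for Lum and -0.14 for Dcn.

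The other members are enzymes, carriers and growth factor genes rather than matrix, grouped here as meningeal cell genes. Whether their signal came from meningeal cells was not tested. Aldh1a2, which makes retinoic acid, ran from 7.79 to 10.40 in control rats with a median of 9.11, and from 7.62 to 8.15 in stress rats with a median of 7.97. Control 6 (10.40) was above control 5 (10.11) here. The difference was -1.15 (SE 0.428, limma adjusted p = 0.237). Crabp2, which carries retinoic acid to the nucleus, differed by -0.59 (SE 0.228), with controls 5 and 6 at 8.96 and 9.08 and stress rats at most at 7.84.

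Slc13a4, a sulfate carrier, had the widest group difference when each gene was read by its probe set of highest mean, -1.28 (SE 0.537, limma adjusted p = 0.279). It ran from 7.91 to 10.78 in control rats with a median of 9.79, and from 7.76 to 9.07 in stress rats with a median of 8.10. Stress 1 (9.07), the stress rat with high Ttr, stood apart from the other 5, which were at 8.27 or below. Slc22a6, an organic anion carrier, differed by -0.83 (SE 0.334), with control 5 at 9.50 and no stress rat above 7.78.

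Igf2, the growth factor, ran from 10.69 to 12.78 in control rats with a median of 12.02, and from 10.87 to 11.27 in stress rats with a median of 10.95. Control 1 was the lowest and control 5 the highest of the 12 rats. The difference was -0.87 (SE 0.34, limma adjusted p = 0.252), while the other 3 probe sets of Igf2 were compressed and 2 of them had a marginally higher stress mean. Igfbp2, which binds it, ran from 9.84 to 12.39 in control rats and from 10.28 to 10.50 in stress rats, a difference of -0.91 (SE 0.389, limma adjusted p = 0.29).

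**Figure D3:**
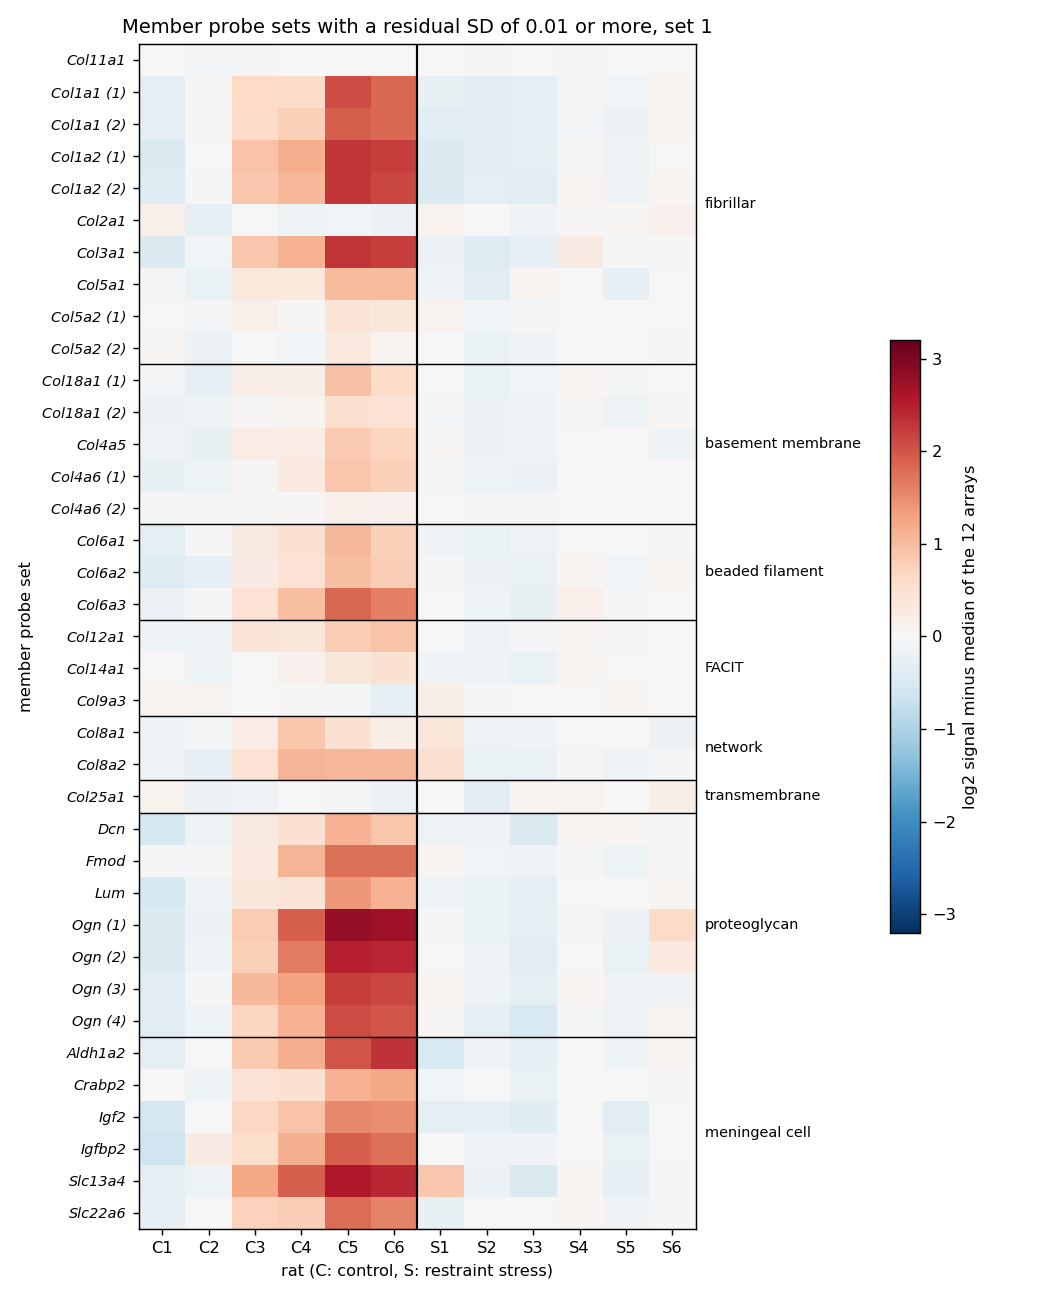
Heat map of the 37 member probe sets with a residual SD of 0.01 or more in set 1: rows are probe sets grouped by class, columns are the 12 rats, and colour is the log2 signal minus the median of the 12 arrays. Controls 5 and 6 are the 2 highest arrays in 31 of the 37 rows, controls 3 and 4 are intermediate in many, and Col2a1, Col9a3 and Col25a1 do not follow them.

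With controls 5 and 6 left out, 0 members and 0 of all probe sets were called by limma. The differences shrank to -0.40 for Col1a1, -0.56 for Ogn, -0.58 for Aldh1a2, -0.68 for Slc13a4, -0.45 for Igf2 and -0.40 for Igfbp2. These kept their sign, while that of the compressed Col4a1 turned, at 5.74e-05. This pair of rats was left out because earlier results of the same data had set them apart. They were the highest controls for each gene named here, so leaving them out had to lower the control mean. The smaller differences without this pair, here and above, thus follow from the choice of rats and are no test of stress. The lowest controls were not left out as a pair.

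Markers of meningeal fibroblasts moved with the members. Their summed linear signal, over 25 measured genes of 29 listed, was 16723 and 18648 in controls 1 and 2, 27042 and 26960 in controls 3 and 4, and 37552 and 36657 in controls 5 and 6. The 6 stress rats lay between 17328 and 18516. None of the 25 genes passed in either direction, against 0.598% of all genes, and controls 5 and 6 were the 2 highest for 18 of them. The 2 smallest adjusted p values were those of Cdh11, a cadherin (-0.20, limma adjusted p = 0.0816), and Nr2f2, a nuclear receptor (-0.28, 0.162). The defining transcription factors Foxc1 (7.61), Foxc2 (7.46) and Twist1 (6.89) were compressed and below the column medians, and the part of meningeal cells in the result was not tested.

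Mural cell markers, which belong to pericytes and smooth muscle, also had their highest sums in controls 5 (8757) and 6 (7680), with the other controls between 5991 and 6464 and the stress rats between 5827 and 6035. None of 15 passed, and Tagln, a smooth muscle protein, differed by -0.70 (limma adjusted p = 0.221). Endothelial sums overlapped, 12615 to 14266 in control and 12544 to 13854 in stress. Of 18 endothelial markers Slc2a1, the glucose carrier, rose by 0.36 (limma adjusted p = 0.00585) and Kdr, a receptor for vascular endothelial growth factor, fell by 0.64 (0.0351). Macrophage sums were also highest in controls 5 (5117) and 6 (4833), with the other controls between 3834 and 4516 and the stress rats between 3884 and 4024. Of the 11 macrophage genes 0 were called, with Cd74 at -1.03 (limma adjusted p = 0.233). Choroid plexus (13 genes), pituitary (10), blood (4) and hypothalamic neuron (14) lists also had 0 called. With 0.598% of all genes called, 0 calls in such short lists says little about them.

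Genes that process, degrade or receive collagen, taken from lists by function, did not pass either, where 0.598% of all genes were called. At that share, 0 calls in lists of this size says little about them. None of 24 genes of collagen folding and cross-linking was called: Serpinh1, the collagen chaperone, differed by -0.51 (limma adjusted p = 0.159) and P3h3, a prolyl hydroxylase, by -0.22 (0.106). None of 17 proteases and inhibitors was called, with Mmp14 at -0.49 (0.132) and Timp1 at -0.46 (0.237). Among 20 other basement membrane genes, 0 were called, with the laminin chain Lama4 at -0.17 (limma adjusted p = 0.104) and Sparc at -0.12 (0.155). Summed signals of these lists were also highest of set 1 in controls 5 and 6. They were 17615 and 16748 for folding and cross-linking, 10683 and 10620 for proteases and inhibitors, and 18641 and 19036 for basement membrane.

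The 30 other fibroblast matrix genes had 0 calls, although controls 5 and 6 were the 2 highest for 20 of them. Tgfbi differed by -0.24 and Mfap5, a microfibril protein, by -0.78, both with a limma adjusted p of 0.233. The lists of collagen receptors (5), TGF-beta signalling (14), insulin-like growth factor signalling (12) and retinoic acid handling (13) also had 0 calls, with Itgb1 at -0.15 (0.242), Tgfbr1 at -0.09 (0.0828), Igfbp7 at -0.12 (0.245) and Rbp4, the retinol carrier, at -0.72 (0.237). Over all genes 57 were called higher and 28 lower of 14217 (0.598% in either direction).

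The comparison of linalool under stress with stress alone asked what the odour adds to restraint. It shares its stress rats with the first comparison, in another normalization, so the comparisons are not independent. limma called 25.0% of all probe sets (7763 of 31042). It also called 27 of 57 array control probe sets, with p adjusted over these 57 alone. Of the array controls, 45 read bacterial or phage RNA rather than rat RNA, and 19 of these passed, 15 higher and 4 lower. In the stress comparison 1 of the 57 passed, and it was 1 of these 45. A difference in how the arrays of the groups were processed and an effect of the odour cannot be told apart in these calls.

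Of the members, 6 of 74 were called, 3 higher (14.2% of all probe sets) and 3 lower (10.8% of all). Each of the 6 was compressed, a state in which 20.2% of all probe sets were called, and quantile normalization left none of the 6. None of the classes named in this contrast was called: 0 of 19 fibrillar, 0 of 11 basement membrane, 0 of 7 proteoglycan and 0 of 9 meningeal cell probe sets passed. Differences of the 74 lay between -0.15 and 0.23, with a median of -0.07 residual SD against -0.01 for all probe sets. Groups did not overlap for 1 member, Col20a1, against 11.9% of all probe sets.

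The members called higher were Col10a1 (0.000421, limma adjusted p = 0.0234), a collagen of growth plate cartilage, Col19a1 (0.000338, 0.0161) and Col6a3 (0.000458, 0.039). Those called lower were Col20a1 (-0.000712, 0.00987), Col9a2 (-0.000202, 0.00928) and Col6a5 (-0.000205, 0.0445). Col6a3 and Col6a5 were near the threshold. With 1 rat left out, Col6a3 passed only without stress 4 or stress 6 and Col6a5 only without linalool 2, 5 or 6, and the adjusted p reached 0.0802 and 0.0894. Centring the columns on a common median called 56 of 74 members higher and 0 lower, and turned the sign of the 3 that had been lower.

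The fibrillar chains that were open in set 2 differed little. Col1a2 ran from 8.98 to 9.63 in stress rats and from 9.09 to 9.54 in linalool rats, and the groups covered nearly the same values. The difference of linalool minus stress was 0.10 (SE 0.127, limma adjusted p = 0.618). Col3a1 differed by -0.06 (SE 0.108, 0.737) and Col27a1 by -0.02 (SE 0.0142, 0.409). Col1a1, Col5a1, Col5a2, Col18a1 and each measured type IV chain were compressed in set 2, so for the basement membrane class this comparison holds no readable difference. The class scores differed by -0.02 for fibrillar and -0.15 for basement membrane collagens, and the first turned positive at 1.47 with median centring and 0.69 with quantile normalization, the second at 1.49 with median centring.

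The proteoglycans had 7 of 7 probe sets with a higher linalool mean, and none passed. Ogn differed by 0.14 (SE 0.0795, limma adjusted p = 0.215), Dcn by 0.09 (SE 0.11), Lum by 0.08 (SE 0.0647) and Fmod by 0.12 (SE 0.117). For each of these 4 genes linalool 1 was the highest of the 12 rats, for Fmod at 8.45 against 7.90 for the next linalool rat. Igf2 ran from 10.89 to 11.27 in stress rats and from 10.70 to 11.40 in linalool rats. Its difference was -0.04 (SE 0.124, limma adjusted p = 0.847), and that of Igfbp2 was -0.11 (SE 0.13, 0.574). Linalool 1 was again the highest of the 12 rats for both, at 11.40 and 10.89.

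Slc13a4 was between 7.82 and 9.08 in stress rats and between 8.00 and 9.81 in linalool rats. In each group rat 1 was far above the rest, at 9.08 and 9.81, and the other 10 rats lay between 7.82 and 8.31. The difference was 0.17 (SE 0.331, limma adjusted p = 0.747), and -0.11 without linalool 1. The same 2 rats were highest for Col8a1, at 8.20 and 8.45, and also for Col8a2, where no other rat exceeded 7.81. These were the rats with high choroid plexus sums, 16384 and 23362, where the other 10 rats lay between 2561 and 3442, and the part of choroid plexus RNA was not tested.

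Col25a1 differed by -0.15 (SE 0.108, limma adjusted p = 0.335), from a mean of 10.47 to 10.32, and Col9a3 by -0.09 (SE 0.041, 0.135). Aldh1a2, Crabp2 and Slc22a6 were compressed in set 2. The summed meningeal fibroblast signal was 17722 to 18804 in stress and 18142 to 19786 in linalool rats.

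**Figure D4:**
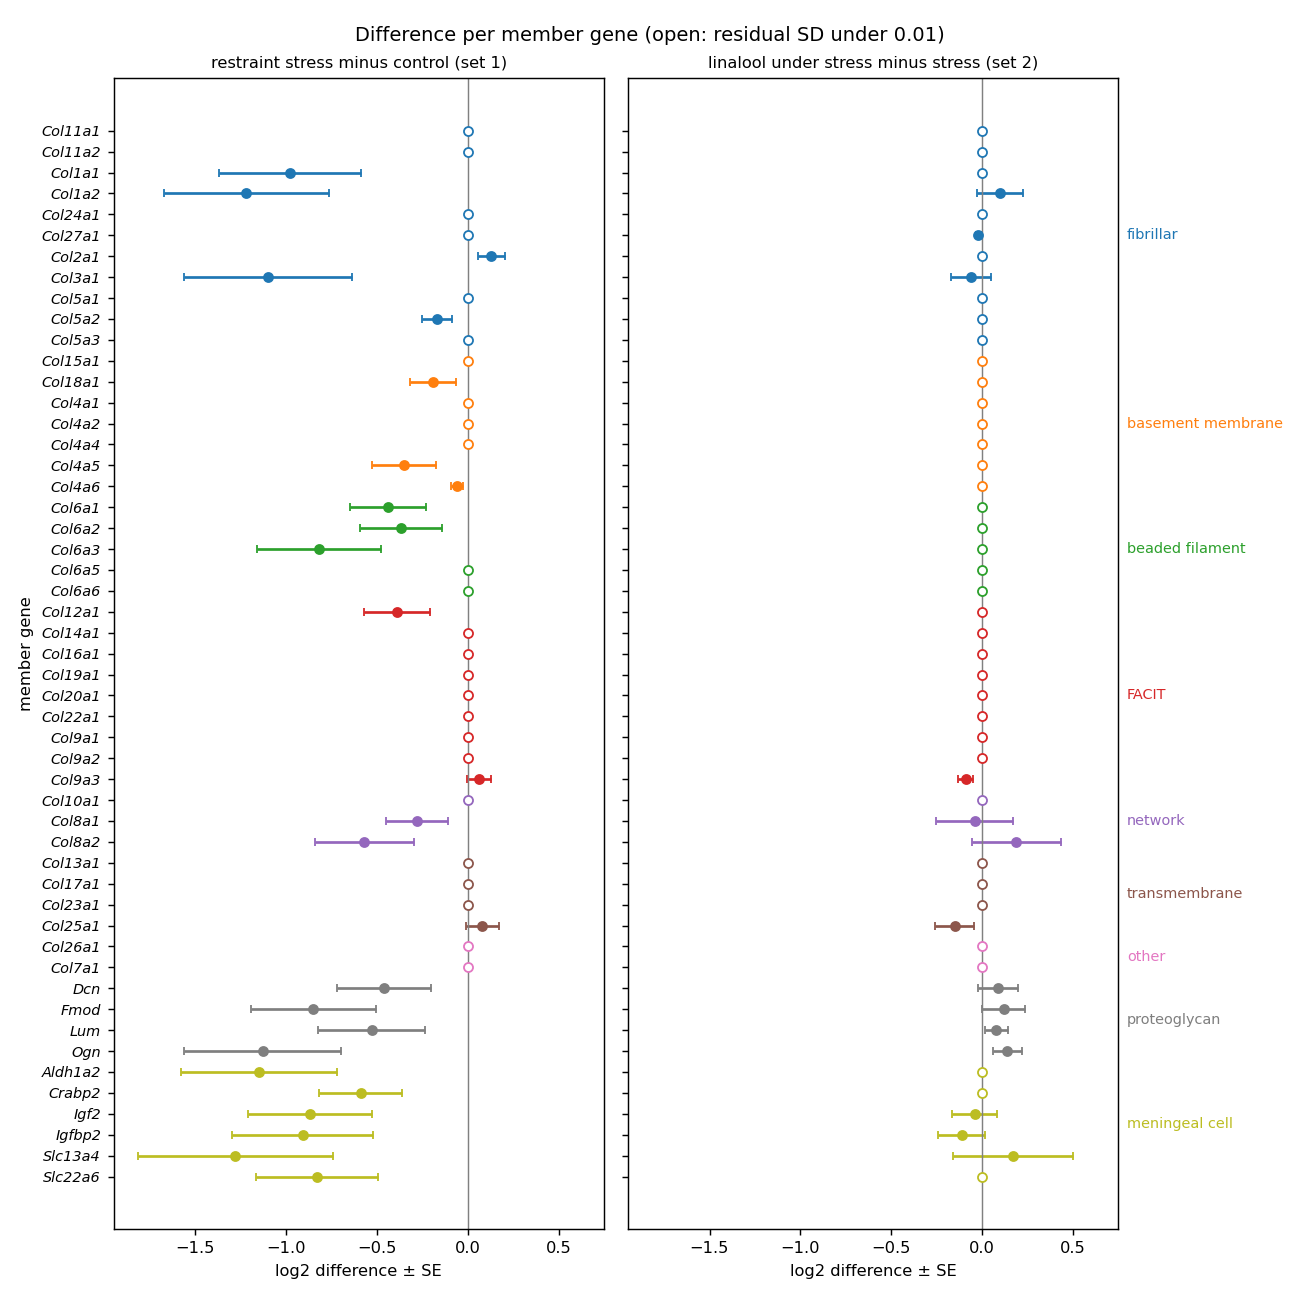
Log2 difference ± SE (horizontal) of the brightest probe set of each of the 51 member genes (vertical, grouped and coloured by class), for stress minus control at left and linalool minus stress at right; open circles mark compressed probe sets. At left the readable differences reach -1.28 (Slc13a4), and at right none of the filled points passed the test.

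Several genes that act on collagen were called in this comparison, where limma called 28.3% of all 14217 genes, 19.3% higher and 9.08% lower. Of 24 folding and cross-linking genes 7 were called higher and 1 lower, and 4 of the 8 were open. Among them were P4hb, a subunit of prolyl hydroxylase (0.25, limma adjusted p = 0.00263), Serpinh1 (0.23, 0.00653) and the compressed Plod3 (0.00027, 0.00131). Of 17 proteases and inhibitors 3 were called higher and 1 lower, and of these only Timp4 was open (0.15, 0.0196), while Timp1 (0.000362, 0.00508) and Mmp15 (-0.02, 0.00553) were compressed. Of 30 other fibroblast matrix genes 5 were called higher, of which Efemp2 (0.22, 0.00262) and Mgp (0.39, 0.0148) were open and the other 3, Omd (0.000307, 0.00642) among them, were compressed. Of 20 other basement membrane genes 1 was called, the compressed Smoc1 (0.000198, 0.0299).

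Of 5 collagen receptors, the open Ddr1, a collagen-binding kinase, fell by 0.20 (limma adjusted p = 0.000899), while Itga1 (-0.01, 0.0278) and Ddr2 (0.000327, 0.0138) were called but compressed. In the TGF-beta list 1 of 14 passed, the compressed Tgfb1 (-0.000216, 0.00801). In the insulin-like growth factor list 0 of 12 passed, and the nearest, Igf1r (0.0779) and Igf2r (0.109), were compressed. In the retinoic acid list 3 of 13 were called higher and 1 lower: Aldh1a1 rose by 0.36 (0.00773), while Crabp1 (0.000218, 0.0331) and Rarg (-0.000231, 0.0311) were compressed.

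Cell type markers were also called in part, and most lists lay below the 28.3% of all genes. Of 25 meningeal fibroblast markers 2 were called higher and 2 lower (16.0%), with Foxp1 at -0.27 (limma adjusted p = 0.000852), Nr2f2 at -0.16 (0.00435) and Mgp as above. Of 18 endothelial markers 2 were called higher and 2 lower (22.2%), with the open Esam at 0.14 (0.000247) and the compressed Cldn5 (0.000344, 0.00284) and Flt4 (-0.00105, 0.00371). Of 15 mural markers 2 were called lower (13.3%), Rgs5, a pericyte gene, at -0.65 (2.25e-05) and the compressed Smtn (-0.000544, 0.0139). The mural sums were 5904 to 6101 in stress and 5484 to 5613 in linalool rats, without overlap. However, 13 of the 15 were compressed and 9 of the 15 had a higher linalool mean, so the sums do not show a fall of the list as a whole. Choroid plexus had 0 of 13 called, with the compressed Kcnj13 (0.0801) and Calml4 (0.232) nearest, and pituitary 1 of 10, the compressed Gh1 (-0.000215, 0.0186). Hypothalamic neurons had 2 of 14 (14.3%), Npy (0.31, 0.00781) and Sst (0.44, 0.0427), and macrophages 2 of 11 (18.2%), Aif1 (0.17, 0.0133) and the compressed Itgam (0.000337, 0.0222). Of the 4 blood genes measured 2 were called, Alas2 (0.36, 0.00284) and Hbb (0.35, 0.0163), above that share.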

How the data were processed

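RNA of 18 hypothalamic blocks was read on Affymetrix arrays from 500 ng of total RNA, per the labels' protocols. The deposited table holds log2 signals that the authors normalized in 2 sets, per the series' design text; the summarization and normalization methods are not given in the sources used here. Each comparison was fitted inside its own set with limma 3.58.1 in R 4.3.3 (lmFit, eBayes, two-sided) on 31042 probe sets, 57 array controls left out, with Benjamini-Hochberg adjustment over all of them and a threshold of 0.05. For the counts of called array controls, these were fitted with all other probe sets and their p was adjusted over the 57 alone. Limma's prior degrees of freedom were 0.403 and 0.419. The number of arrays limits the precision, and each p-value sets a group difference against the spread within groups. For compressed probe sets that spread cannot be read as the spread between rats. Python 3.11.15 with pandas 2.3.3 made the summaries, and the fits were tested on simulated data. Groups came from the sample titles.

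The members and lists were chosen with earlier results of these data known. Always named were 18 members, with the brightest probe set of each gene; then called members, up to 15 per comparison; then up to 3 called genes of each other list, or its 2 with the smallest p. Other genes and probe sets were named after their values were seen. Summed signals add 2 to the power of the log2 value over a list's genes. Alternatives were quantile normalization, median centring, a filter on dim probe sets, 1 probe set per gene, a trended robust fit, a replicate block, other class definitions, and leaving out each array or controls 5 and 6.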

Additional observations from a re-analysis of the deposited data

Results flagged for a closer look

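A rat far from the other 5 of its group was looked for in 104 groups of 6, where chance flags about 1 in 20 groups. Slc13a4 was highest in linalool 1, at 9.81 against 8.31 for the next rat, and this gap was 0.831 of the range of the group. Fmod was highest in the same rat, at 8.45 against 7.90, a gap of 0.756 of the range. Col5a2 was highest in stress 1 of set 2, a gap of 0.662 of a range of only 0.000533, in a compressed probe set.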

How the results depend on the processing

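No member passed for stress against control under any alternative run. The count over all probe sets, 172, was 92 with median centring, 77 with quantile normalization, 101 with 1 probe set per gene and 0 without controls 5 and 6. Leaving out 1 array gave 24 to 205, with 74, 87, 52 and 48 without control 1, 3, 5 or 6 and 24, 37, 76 and 29 without stress 1, 3, 4 or 5. Rats share only a replicate number: same-numbered rats correlated at 0.0755 to 0.223 in set 1, with 3 of 6 best with their own number, and at -0.105 to 0.182 in set 2, with 1 of 6. With a replicate block the count was 16, with 0 members.

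Score differences for stress were 1.08 (fibrillar) and 1.09 (basement membrane) with median centring and 0.93 and 0.62 with quantile normalization. With narrow classes the fibrillar score was -1.34 and the gap -0.72. Leaving out 1 array gave -1.01 to -0.56, -1.16 to -0.62 and, for the gap, -0.01 to 0.18. Col5a1, Col4a1 and Col4a2 turned to 0.01 with median centring and with quantile normalization, and Col4a1 to 5.74e-05 without controls 5 and 6.

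For linalool, median centring called 0 members lower, 56 higher and 28990 probe sets in all (27524 higher). Quantile normalization called 0, 0 and 2608 (1528 higher). Dim probe sets left out gave 1 lower and 1 higher, and 1 probe set per gene gave 4229 called. The replicate block gave 5 members lower, with Col19a1, Col10a1, Col6a3 and Col6a5 no longer called and Ogn (0.14) and Slc22a6 (-0.000232) called. Leaving out 1 array gave 2 to 4 members lower, 2 to 4 higher and 6383 to 7466 probe sets called.

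The linalool fibrillar score was 1.47 with median centring and 0.69 with quantile normalization, and the basement membrane score 1.49 with median centring; leaving out 1 array gave -0.28 to 0.08, -0.42 to 0.15 and, for the gap, -0.08 to 0.30. With median centring Col5a1, Col5a2, Col4a2, Col18a1, Aldh1a2, Slc22a6, Col9a2, Col20a1 and Col6a5 turned to 0.01. With quantile normalization Col18a1, Aldh1a2 and Slc22a6 turned to 0.01, Col5a1 to 0.00482, Col4a2 to 0.00134, Col9a2 to 0.00481, Col20a1 to 0.00364 and Col6a5 to 0.00193. Leaving out 1 array turned the sign within -7.73e-05 to 4.25e-05 for Col4a2, -0.11 to 0.34 for Slc13a4, -0.12 to 0.02 for Igf2, -8.32e-05 to 6.93e-06 for Col5a1, -0.12 to 0.01 for Col3a1 and -0.000162 to 2.76e-05 for Aldh1a2. The cause of these changes was not tested.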
